A study of Mus musculus with 16 samples.

Results

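The effect of losing Eed that astrocytes and neurons of the developing neocortex have in common was examined in 10 of the 16 RNA-seq libraries of the study. Libraries were taken if they held at least 1000000 uniquely aligned reads and at least 60% of their reads aligned uniquely. This left 5 Eed-/- libraries (astrocyte replicates 2 and 5, neuron replicates 1, 2 and 3) and 5 Eed+/+ libraries (astrocyte replicates 1, 2, 4 and 5, neuron replicate 1). The choice used alignment alone and no expression value. All libraries came from the neocortex of mice at postnatal day 4, of strain CD1 per the labels and of a mixed background per the study's methods. Cells were labeled by mosaic analysis with double markers (MADM), in which recombination between homologous copies of chromosome 7, driven here by Emx1-Cre in cortical progenitors, yields sparse green cells of known genotype. In Eed-MADM animals the green cells lacked both copies of Eed, while most surrounding cells were heterozygous. In control-MADM animals the green cells and their surroundings were Eed+/+. Green cells of both genotypes carried 2 paternal copies of chromosome 7, the chromosome that also holds Eed. Astrocytes were told from neurons by a lacZ transgene that the human GFAP promoter drives, GFP+/lacZ+ cells being sorted as astrocytes and GFP+/lacZ- cells being taken for neurons. Each library came from 1 animal. The sources used here do not say whether an astrocyte and a neuron library with the same number came from the same animal, in which case the 10 libraries would come from 8 animals.

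Eed belongs to the core of PRC2, the second Polycomb repressive complex, which places methyl groups on lysine 27 of histone H3. Genes that carry this mark are kept silent, and many of them are regulators of development that belong to another body region, tissue or stage, the Hox genes foremost among them. The locus that encodes the cell cycle inhibitors Cdkn2a and Cdkn2b is another well known target. The study's methods place the deleted region within the Eed gene, and gene counts also hold reads from outside that region, so the count of Eed tests the genotype only in part.

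Reads assigned to genes numbered between 994077 and 2058192 in the Eed-/- libraries and between 1621352 and 3178529 in the Eed+/+ libraries. Libraries held reads for 12357 to 18064 genes and for 11433 to 17586 genes, respectively. Levels are given as CPM, counts per 1000000 gene reads after TMM scaling, in the order of the replicate numbers. Astrocyte markers summed to between 28970 and 82910 CPM in the astrocyte libraries and to between 13880 and 27340 CPM in the neuron libraries, in which the summed neuron markers lay lower, between 2265 and 3445 CPM. Libraries sorted as neurons thus held more reads from the astrocyte list than from the neuron list. Eed-/- astrocyte replicate 5 stood apart from the other 5 astrocyte libraries. Its astrocyte markers summed to 28970 CPM, against 49970 CPM or more in the others and 27340 CPM at most in neuron libraries, and its neuron markers (3129 CPM) and intermediate progenitor markers (831.4 CPM) lay within the range of the neuron libraries. The neuron markers of Eed+/+ astrocyte replicate 4 (2666 CPM) did so as well. In neurons the neuron markers summed to 2398 CPM in the Eed+/+ library, within the 2265 to 3445 CPM of the Eed-/- libraries. No gene of the 9 marker lists passed the test below, and the summed levels of the microglia, endothelial, erythroid, oligodendrocyte lineage and interneuron lists overlapped between the genotypes. In sorted bulk libraries, more cells that use a gene and more RNA per cell cannot be told apart. Eed+/+ astrocyte replicate 5 held 178 Xist reads and 0 Ddx3y reads, whereas the other 9 libraries held 0 to 3 Xist reads and 13 to 191 Ddx3y reads, so the sex-linked genes were not balanced between the genotypes.

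Eed, the deleted gene, was lower in the Eed-/- cells of both types. It stood at 16.3 and 12.9 CPM in the Eed-/- astrocyte libraries and at 42.6, 72.7, 36.9 and 25.7 CPM in the Eed+/+ astrocyte libraries. In neurons it stood at 15.3, 36.0 and 30.1 CPM against 63.1 CPM in the Eed+/+ library. Levels did not overlap within either cell type, but 2 Eed-/- neuron libraries lay above the lowest Eed+/+ astrocyte library. Averaged over the cell types with the libraries permuted within each, the two-sided exact permutation test gave p = 0.0167, the smallest value its 60 arrangements allow. In the fit over all genes the log2 fold change was -1.46 (SE 0.54), which did not pass (edgeR, adjusted p = 1.00). None of the other 11 PRC2 subunits on the list passed either. Ezh2, the main catalytic subunit, had a log2 fold change of -0.02, and Suz12, which holds the complex together, one of -0.23.

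To find genes with a shared response, a single genotype effect was fitted over both cell types with cell type as a covariate (edgeR quasi-likelihood test, Benjamini-Hochberg adjustment over 14445 genes). At an adjusted p under 0.05 the test called 1 gene (0.00692% of those tested), Crym, which rose. At 0.2, the threshold that the study used for its astrocytes, it called 5 (0.0346%), namely Crym, Npy, Crabp1, Hoxc9 and Hoxb8. All 5 were higher in Eed-/- cells of both types, and no gene was called lower at either threshold. At an unadjusted p under 0.05, 335 genes (2.32%) lay higher and 165 (1.14%) lower. Together these were 500 genes (3.46%), a share under the 0.05 that the threshold alone would allow. The log2 fold change had a median of -0.06 over all genes tested. DESeq2 on the same counts called 29 genes higher and 21 lower at 0.05, of which 39 had the same sign in both cell types.

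Crym encodes mu-crystallin, a cytosolic protein that binds thyroid hormone. Its level was 335.5 and 444 CPM in the Eed-/- astrocyte libraries, against 2.90, 11.1, 9.98 and 1.26 CPM in the Eed+/+ astrocyte libraries. In neurons it was 35.1, 38.5 and 24.5 CPM, against 0 reads in the Eed+/+ library. Every Eed-/- library of either type lay above every Eed+/+ library. The mean in astrocytes was 389.6 ± 76.5 CPM (SD, n = 2) against 6.30 ± 4.94 CPM (SD, n = 4), and the pooled reads differed 53.1-fold (exact 95% counting interval 41.0 to 69.7). In neurons Crym was at least 20.5-fold higher, with 3 reads taken as the floor for the Eed+/+ library. The shared log2 fold change was 6.07 (SE 0.59, edgeR adjusted p = 0.000318). Leaving out any library kept the call (10 of 10), with adjusted p between 0.000287 and 0.0119 in edgeR, as did 9 of 11 other alternatives. Without the cell type term the call was lost (log2 fold change 5.04, edgeR adjusted p = 0.469). It was also lost with the replicate number as a further factor (values below). The astrocyte and neuron effects were not distinguished by the interaction test (edgeR, unadjusted p = 0.201). Crym lies at chr7:120186380-120202111 on the minus strand (GRCm38), on the chromosome that recombined and was of paternal origin in both genotypes. In Eed-/- cells alone, this chromosome carried the conditional Eed allele, which the study had brought onto it by meiotic recombination. Whether sequence linked to that allele differed between the genotypes was not tested.

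Npy encodes the precursor of neuropeptide Y, which in the cortex is made mainly by interneurons. It was read at 196 and 43.2 CPM in the Eed-/- astrocyte libraries and at 3.87, 0, 0 and 0 CPM in the Eed+/+ astrocyte libraries. In neurons the levels were 53.3, 75.0 and 51.2 CPM against 3.13 CPM. The Eed-/- and Eed+/+ libraries did not overlap. Pooled reads differed 145-fold in astrocytes (exact 95% interval 72.9 to 339) and 19.1-fold in neurons (8.69 to 52.5), and the shared log2 fold change was 5.89 (SE 0.97, edgeR adjusted p = 0.0553). The summed interneuron markers, of which Npy was not one, ranged from 171.8 to 1192 CPM in the Eed-/- libraries and from 2.51 to 1078 CPM in the Eed+/+ libraries. Sst and Vip, which mark classes of interneurons (Sst also many that make Npy), reached 7.96 and 0.487 CPM at most in Eed-/- libraries, while Eed+/+ astrocyte replicate 1 held Sst at 8.71 CPM. Eed-/- astrocyte replicate 2, in which Npy was highest, held interneuron markers at 171.8 CPM, below Eed+/+ astrocyte replicates 1 and 4 (882.4 and 990.4 CPM), in which Npy stood at 3.87 and 0 CPM. The part of interneuron reads in the Npy difference was not tested. Npy lies at chr6:49822710-49829507 on the plus strand.

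Crabp1 binds retinoic acid in the cytosol. It had no read in the 4 Eed+/+ astrocyte libraries, none in Eed-/- astrocyte replicate 2 and 99 reads (91.0 CPM) in Eed-/- astrocyte replicate 5. In neurons it stood at 79.6, 107 and 108 CPM, against 1.04 CPM (2 reads) in the Eed+/+ library. The other 4 Eed-/- libraries were thus high, and astrocyte replicate 2 was at the Eed+/+ level. The pooled reads were at least 106-fold higher in astrocytes and 93.8-fold higher in neurons (exact 95% interval 25.8 to 777), with a shared log2 fold change of 7.76 (SE 1.25, edgeR adjusted p = 0.0553). The astrocyte part of this difference rests on replicate 5 alone, the library with marker levels near those of the neuron libraries, and the part of that in the Crabp1 level was not tested. Crabp1 lies at chr9:54764748-54773110 on the plus strand.

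Hoxc9 and Hoxb8 are homeodomain transcription factors of the trunk that are normally silent in the forebrain. Hoxc9 stood at 4.37 and 50.5 CPM in the Eed-/- astrocyte libraries and at 38.7, 49.7 and 47.8 CPM in the Eed-/- neuron libraries, and 1 read was found in all 5 Eed+/+ libraries together. Hoxb8 stood at 46.2 and 24.8 CPM in Eed-/- astrocytes and at 16.8, 14.1 and 12.5 CPM in Eed-/- neurons, again with 1 read in all Eed+/+ libraries. Neither gene overlapped between the genotypes, and in both cases the lone Eed+/+ read was in astrocyte replicate 1. In astrocytes the pooled reads of Hoxc9 differed 200-fold (exact 95% interval 34.6 to 8024) and those of Hoxb8 325.7-fold (57.2 to 12990). In neurons Hoxc9 was at least 28.9-fold and Hoxb8 at least 8.93-fold higher. Both had a shared log2 fold change of 7.62 (SE 1.18 and 1.23, edgeR adjusted p = 0.0553 for each). Hoxc9 lies at chr15:102976439-102985099 and Hoxb8 at chr11:96281905-96285315, both on the plus strand, and Hoxc9 overlaps the annotated Hoxc5, whose shared reads the authors' counting set aside.

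**Figure D1:**
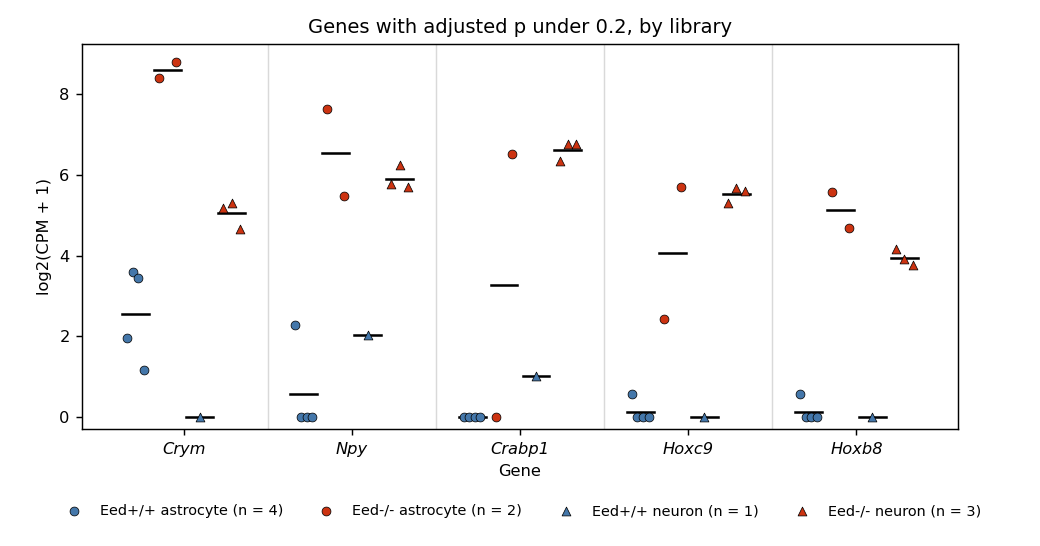
The 5 genes called at an adjusted p under 0.2, as log2(CPM + 1) in each of the 10 libraries. Points are libraries (circles, astrocytes; triangles, neurons; blue, Eed+/+; red, Eed-/-) and bars are group means. Crym, Npy, Hoxc9 and Hoxb8 did not overlap between the genotypes, while Crabp1 was at 0 in Eed-/- astrocyte replicate 2.

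The astrocyte libraries fall into 2 runs of consecutive library numbers, and all neuron libraries belong to the first. Within that run, which holds 7 libraries, Crym kept its call with a log2 fold change of 5.90 (edgeR adjusted p = 0.0198). Hoxb8 had a value of 7.45 and Npy one of 5.54 there, with edgeR adjusted p of 0.273 and 0.212. For Crabp1 and Hoxc9 the first run gave 6.13 and 6.01 (edgeR adjusted p = 0.349 and 0.466). The second run holds 1 Eed-/- library, astrocyte replicate 5, whose Crym, Npy, Crabp1, Hoxc9 and Hoxb8 levels all lay above those of its 2 Eed+/+ libraries, astrocyte replicates 4 and 5. No test was made within the second run.

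The calls at 0.2 other than Crym depended on single libraries, although each log2 fold change stayed positive in all 10 fits with a library left out (edgeR). Npy stayed under 0.2 in 6 of the 10, Hoxc9 and Hoxb8 in 5 each and Crabp1 in 3. With the replicate number as a further factor edgeR called no gene at 0.2. With same-numbered libraries of a genotype as a random block, limma-voom did not call Crabp1 at 0.2. All 4 genes lost the call without Eed+/+ astrocyte replicate 4 (edgeR adjusted p between 0.208 and 0.314), without Eed+/+ neuron replicate 1 (0.2695 to 0.447) and without Eed-/- neuron replicate 2 (0.222 to 0.242). Without Eed+/+ astrocyte replicate 1, Hoxc9, Hoxb8 and Crabp1 had an edgeR adjusted p of 0.290. Hoxb8 and Crabp1 stood at 0.223 and 0.237 without Eed+/+ astrocyte replicate 2, and Crabp1 at 0.275 without Eed+/+ astrocyte replicate 5. Without Eed-/- astrocyte replicate 5, the adjusted p of Hoxc9 and Crabp1 was 0.800, and without Eed-/- astrocyte replicate 2 it was 0.00315 for Hoxc9, 0.000453 for Crabp1 and 0.308 for Npy (edgeR).

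PRC2 binds stretches rich in the dinucleotide CG near the starts of the genes it silences. The promoter windows of the called genes are therefore shown from 250 bases before to 50 bases after the start, with each CG in capitals (CG reads the same on both strands, and occurrences cannot overlap). They are RefSeq sequence of GRCm38.p6, on the plus strand in each case, at chr11:96281655-96281954 for Hoxb8, chr9:54764498-54764797 for Crabp1 and chr6:49822460-49822759 for Npy. Crym and Hoxc9 had no window in the table used here.
Hoxb8: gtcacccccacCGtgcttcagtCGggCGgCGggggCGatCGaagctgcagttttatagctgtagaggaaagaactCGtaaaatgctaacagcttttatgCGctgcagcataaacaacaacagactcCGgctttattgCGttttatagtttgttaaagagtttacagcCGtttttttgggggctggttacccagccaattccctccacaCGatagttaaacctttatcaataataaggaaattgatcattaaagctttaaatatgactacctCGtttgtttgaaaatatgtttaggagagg
Crabp1: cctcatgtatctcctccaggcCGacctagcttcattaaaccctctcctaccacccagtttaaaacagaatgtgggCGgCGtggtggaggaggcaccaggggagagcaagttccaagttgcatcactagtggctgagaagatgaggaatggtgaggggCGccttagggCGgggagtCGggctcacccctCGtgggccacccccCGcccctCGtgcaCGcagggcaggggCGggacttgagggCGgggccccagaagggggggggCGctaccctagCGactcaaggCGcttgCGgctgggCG
Npy: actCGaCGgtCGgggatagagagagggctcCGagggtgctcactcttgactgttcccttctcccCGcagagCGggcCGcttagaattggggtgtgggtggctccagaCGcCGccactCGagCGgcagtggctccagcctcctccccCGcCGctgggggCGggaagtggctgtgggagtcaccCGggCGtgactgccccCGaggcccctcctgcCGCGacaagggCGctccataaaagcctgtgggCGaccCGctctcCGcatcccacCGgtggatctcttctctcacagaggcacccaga
The window of Hoxb8 holds 13 CG, that of Crabp1 17 and that of Npy 24. Of 32817 windows listed, 94.6% hold a CG, with a median of 7 per window. Among the 10657 tested genes with a window the median was 21, so that Hoxb8 and Crabp1 lay below it and Npy a little above. As many CG as in Hoxb8, Crabp1 and Npy or more occur in 37.9%, 31.4% and 20.0% of windows. A comparison between sets of genes would be void, because the table holds windows for only 73.8% of the genes tested.

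Hox genes were read almost only in Eed-/- libraries. The 39 Hox genes in 4 clusters summed to 135 and 256.3 CPM in the Eed-/- astrocyte libraries and to 281.9, 242.1 and 251.9 CPM in the Eed-/- neuron libraries. In the Eed+/+ libraries the sums were 1.45, 0, 0.868 and 0 CPM in astrocytes and 0 CPM in neurons. The sums did not overlap, and an Eed+/+ library held at most 3 Hox reads, against 216 to 497 in an Eed-/- library. Of the 39 genes, 32 had reads in Eed-/- libraries and in no Eed+/+ library, whereas 13% of the 26668 genes with any read were of that kind. Hoxb1 showed the opposite, with 2 reads in Eed+/+ astrocyte replicate 4, and Hoxa6, Hoxa11 and Hoxd12 had no read at all. Reads in at least 3 Eed-/- libraries and no Eed+/+ library were found for 21 Hox genes and for 282 genes in all (1.06%). In the reverse direction 140 genes qualified (0.525%), none of them a Hox gene.

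Genes with reads in all 5 Eed-/- libraries and in no Eed+/+ library numbered 9 (0.0337%). Of these, 7 were Hox genes, namely Hoxb4, Hoxb6, Hoxc4, Hoxc6, Hoxc8, Hoxc11 and Hoxd8. The other two were Cdkn2a, a cell cycle inhibitor, and Cnpy1, a gene of the canopy family. In the opposite sense 1 gene qualified (0.00375%), Ccdc151. Hoxb6 had 22 and 34 reads in Eed-/- astrocytes and 20, 16 and 11 in Eed-/- neurons, and over both types it was at least 48.7-fold higher. Hoxc4 had 16 and 32 reads in astrocytes and 15, 12 and 14 in neurons, at least 42.1-fold higher. Hoxc8 was less even, with 41 and 4 reads in astrocytes and 11, 16 and 41 in neurons. The filter on low counts kept 19 Hox genes, of which Hoxc9 and Hoxb8 were called at 0.2 and none at 0.05 (edgeR), and left 20 untested. At 0.05, DESeq2 called 7 of the 19, beside 50 of all 14445 genes, and limma-voom called 4, beside 7 of 14445. Without the filter edgeR called 6 of 36, beside 18 of 26668 genes. With all 15 labelled libraries it called 6 of 16, beside 41 of 13367 genes. With the replicate number as a further factor, and in the first run alone, edgeR called none of the 19 at 0.05 or 0.2. A gene read only in Eed-/- libraries could pass that filter only through the group in which it was high, so the 19 are not a fair sample of the list.

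By cluster, HoxB, HoxC and HoxD genes were read in Eed-/- cells of both types and HoxA genes mainly in Eed-/- neurons. The Eed-/- astrocyte libraries held reads for 12357 and 14199 genes of any kind, against 16894, 17437 and 18064 in the Eed-/- neuron libraries. The part of this in the HoxA difference was not tested. HoxB genes summed to 78.7 and 92.8 CPM in Eed-/- astrocytes and to 116, 99.9 and 62.0 CPM in Eed-/- neurons. HoxC genes summed to 53.1 and 137 CPM in astrocytes and to 86.2, 82.3 and 119 CPM in neurons, and HoxD genes to 3.12 and 18.4 CPM and to 16.1, 22.4 and 18.2 CPM. The astrocyte and neuron ranges of HoxB, HoxC and HoxD overlapped. HoxA genes had no read in Eed-/- astrocyte replicate 2 and summed to 8.27 CPM in replicate 5, against 63.5, 37.5 and 52.9 CPM in Eed-/- neurons. Among them, Hoxa7 had 0 reads in both astrocyte libraries and 26, 44 and 33 in the neuron libraries, and Hoxa10 had 0 reads against 30, 15 and 22. The interaction test called neither (edgeR), but it can give no usable estimate for genes with no read in 3 of the 4 groups. The most caudal gene of its cluster, Hoxb13, had 0 and 24 reads in astrocytes and 69, 134 and 44 in neurons, with none in Eed+/+ libraries.

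**Figure D2:**
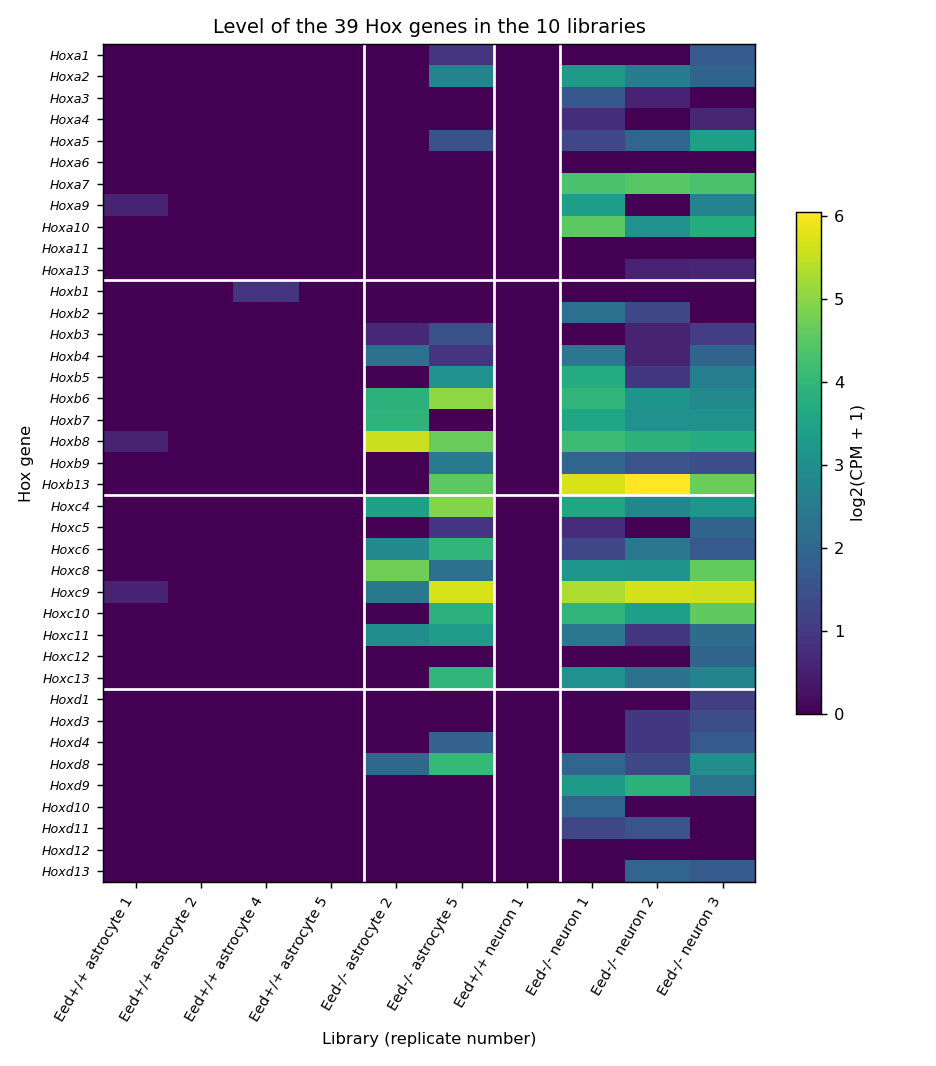
Levels of the 39 Hox genes (rows, by cluster) in the 10 libraries (columns, by group), as log2(CPM + 1) on the color scale. Color fills HoxB and HoxC rows in both Eed-/- cell types and HoxA rows mainly in Eed-/- neurons, while the 5 Eed+/+ columns are almost empty.

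Developmental transcription factors of other tissues were less uniform. Of 110 such genes, 26 had reads in at least 3 Eed-/- libraries and in no Eed+/+ library, beside 1.06% of all genes with a read, against 0 in the reverse direction, beside 0.525%, but none was read in all 5 Eed-/- libraries alone. Summed over the list, Eed-/- libraries ranged from 335.5 to 1166 CPM and Eed+/+ libraries from 308.1 to 829.7 CPM, so the sums overlapped. Reads for 67, 76 and 84 of the genes were found in the Eed-/- neuron libraries, against 21 and 44 in Eed-/- astrocytes, 32 in the Eed+/+ neuron library and 11 to 33 in Eed+/+ astrocytes. The breadth in Eed-/- neurons lay above every other library. Eed-/- astrocyte libraries also held reads for fewer genes of any kind (12357 and 14199) than Eed-/- neuron libraries (16894 to 18064). The part of this in the breadth was not tested. Tal1, a regulator of blood formation, had 0 and 20 reads in Eed-/- astrocytes and 13, 14 and 40 in Eed-/- neurons, against 1 read in all Eed+/+ libraries. Gata6, a factor of heart and endoderm, had 0 and 12 reads and 12, 10 and 13 reads with none in Eed+/+ libraries. En1, which marks the midbrain and hindbrain border, had 0 and 7 reads and 26, 37 and 33 reads, against 1 Eed+/+ read. In all 3 cases the astrocyte reads came from replicate 5 alone, whose summed markers lay near those of the neuron libraries, and the part of that in these reads was not tested. Lhx5 and Isl1, neuronal factors of other regions, had no astrocyte read and were read in neurons only, with 11, 37 and 28 reads for Lhx5 and 7, 27 and 35 for Isl1. Of the 110 genes, 56 passed the filter on low counts and none was called at 0.05 or 0.2 in edgeR. DESeq2 called 0 at 0.05 and 4 at 0.2, beside 50 and 171 of all 14445 genes. Without the filter edgeR called 0 and 1, beside 18 and 39 of 26668 genes. With all 15 labelled libraries it called 2 and 6, beside 41 and 138 of 13367 genes. At an unadjusted p under 0.05, 19 lay higher (edgeR), beside 2.32% of all genes tested, but genes read only in Eed-/- libraries passed the filter through the group in which they were high, so that count supports nothing about the list.

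Inhibitors of cyclin-dependent kinases hold cells out of the division cycle. The 7 genes of this list summed to 383 and 452 CPM in Eed-/- astrocytes, against 312.2, 218.6, 327.3 and 280.5 CPM in Eed+/+ astrocytes, and to 479.8, 540.6 and 471.9 CPM in Eed-/- neurons, against 254.6 CPM. These sums did not overlap, but the difference was carried by Cdkn1a. Without it the list summed to between 231.8 and 343.4 CPM in Eed-/- libraries and between 206.8 and 312.2 CPM in Eed+/+ libraries, which overlap. None of the 7 was called in edgeR (3 at an unadjusted p under 0.05). DESeq2 called 2, Cdkn2b (adjusted p = 0.00121) and Cdkn2a (0.0498), beside 50 of all 14445 genes. Of the 7, 3 (Cdkn1a, Cdkn2a and Cdkn2b) lay higher in every Eed-/- library than in any Eed+/+ library, beside 51 of all 14445 tested genes (0.353%). Cdkn2a and Cdkn2b, nearly unread in Eed+/+ libraries, passed the filter only through the Eed-/- libraries, so this count supports nothing about the list. Cdkn1a, a main target of p53, was at 151 and 191 CPM in Eed-/- astrocytes and at 0, 11.8, 33.0 and 0 CPM in Eed+/+ astrocytes. In neurons it was at 211, 197 and 211.5 CPM against 19.8 CPM. The Eed-/- levels were within a narrow band in both cell types. Pooled reads differed 13.3-fold in astrocytes (exact 95% interval 10.8 to 16.6) and 10.2-fold in neurons (7.35 to 14.4), yet the shared log2 fold change of 3.71 (SE 0.95) did not pass (edgeR adjusted p = 0.962). Cdkn2b had 13 and 16 reads in Eed-/- astrocytes and 22, 30 and 21 in Eed-/- neurons, against 1 read in all Eed+/+ libraries (log2 fold change 6.38, edgeR adjusted p = 0.453). Its neighbor Cdkn2a had 6 and 20 reads and 7, 5 and 5 reads, against none, at least 20.3-fold higher over both types. The levels of Cdkn1b, Cdkn2c and Cdkn2d overlapped between the genotypes, with log2 fold changes of -0.06, 0.63 and -0.77. Cdkn1c, which is expressed from the maternal chromosome that green cells lack, reached 17.4 CPM in Eed+/+ astrocyte replicate 4 and at most 2.92 CPM in Eed-/- libraries.

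The p53 response list of 18 genes, all tested, had a median log2 fold change of 0.67 beside -0.06 over all genes. The median rested on single libraries, at 0.24 without Eed-/- astrocyte replicate 5, 0.45 without Eed+/+ astrocyte replicate 5, 1.12 without Eed-/- astrocyte replicate 2 and 0.17 in the first run alone. Of the 18, 6 had an unadjusted p under 0.05, all higher, beside 2.32% of all genes tested. Members nearly unread in Eed+/+ libraries, such as Eda2r and Pmaip1, passed the filter through the Eed-/- libraries, so this count supports nothing about the list. None was called in edgeR and 1, Eda2r, in DESeq2 (adjusted p = 0.00318), beside 50 of all 14445 genes. The summed level overlapped between the genotypes (712.9 to 1408 CPM against 384.7 to 800.3 CPM). Eda2r, a receptor of the tumor necrosis factor family, had 20 and 27 reads in Eed-/- astrocytes and 26, 24 and 35 in Eed-/- neurons, against 0 in each Eed+/+ astrocyte library and 3 in the Eed+/+ neuron library (log2 fold change 5.62, SE 1.26, edgeR adjusted p = 0.489). Pmaip1, which promotes cell death at mitochondria, had 10 and 18 reads and 15, 21 and 18 reads, against 0 and 3 (4.97, edgeR adjusted p = 0.939). Both genes were separated without overlap. The gene for p53 itself, Trp53, and its regulator Mdm2 had log2 fold changes of 0.46 and 0.23 and did not pass. The S phase list (43 genes) had a median of -0.25 and the G2M list (54 genes) one of -0.42, with no member called (edgeR), and both summed levels overlapped between the genotypes. Neither median kept its sign when libraries were left out. Without Eed-/- astrocyte replicate 5 they were -1.10 and -1.61, without Eed-/- astrocyte replicate 2 they were 0.22 and 0.12, the S phase median was 0.11 without Eed+/+ astrocyte replicate 4, and the G2M median was 0.048 without Eed+/+ astrocyte replicate 1.

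**Figure D3:**
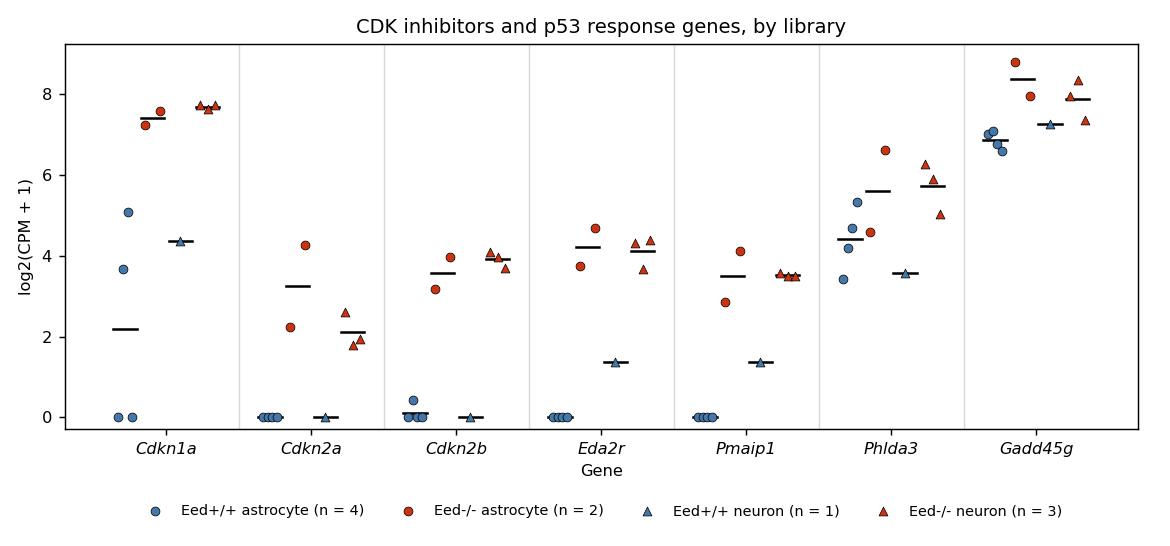
CDK inhibitors and p53 response genes, with Gadd45g, as log2(CPM + 1) in each library (circles, astrocytes; triangles, neurons; blue, Eed+/+; red, Eed-/-; bars, group means). In Cdkn1a, Cdkn2a, Cdkn2b, Eda2r, Pmaip1 and Gadd45g every Eed-/- library lies above every Eed+/+ library.

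Across all genes tested, 51 lay higher in every Eed-/- library and 40 (0.277%) lower in every Eed-/- library. What chance alone would give was not computed for these counts. The 18 pathway lists hold 357 of the genes tested (2.47%). Of the 51, 17 belonged to them, and of the 40, 1 did. Of the 17, 8 were Hox genes, and these and others such as Cdkn2a, Cdkn2b, Eda2r and Pmaip1 passed the filter through the Eed-/- libraries, so these counts support nothing about the lists. The 51 included 21 genes with at most 3 reads in all Eed+/+ libraries together. Gdf10, a secreted factor of the TGF-beta family, was at 23.1 and 119 CPM in Eed-/- astrocytes, against 3.87, 9.27, 14.3 and 13.2 CPM, and at 37.2, 70.1 and 35.8 CPM in Eed-/- neurons, against 1.04 CPM (log2 fold change 3.46, SE 0.77, edgeR adjusted p = 0.489). Gdf10 was called by DESeq2 (adjusted p = 0.000507) and by edgeR without the filter (0.0232). Gadd45g, a growth arrest gene, was expressed in all libraries, at 448 and 248 CPM against 95.4 to 135 CPM in astrocytes and at 247.5, 327 and 163 CPM against 153 CPM in neurons (1.24, SE 0.31, adjusted p = 0.715 in edgeR and 0.0303 in DESeq2). Cnpy1 had 8 and 8 reads in Eed-/- astrocytes and 55, 24 and 28 in Eed-/- neurons (adjusted p = 0.511 in edgeR and 0.0016 in DESeq2). Slc30a3, the zinc transporter of synaptic vesicles, had 25 and 25 reads and 25, 36 and 28 reads, against 5 reads in all Eed+/+ libraries (5.57, adjusted p = 0.695 in edgeR, 0.00244 in DESeq2 and 0.0160 in limma-voom). Its Eed-/- levels lay between 15.6 and 22.97 CPM. Magel2, expressed from the paternal chromosome, stood at 27.5 and 22.97 CPM and at 18.3, 11.7 and 13.1 CPM, against at most 4.84 CPM (4.12, edgeR adjusted p = 1.00). Zdbf2, an imprinted gene of another chromosome that was on no list, ranged from 39.4 to 118 CPM in Eed-/- libraries and from 0 to 23 CPM in Eed+/+ libraries (2.27).

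The remaining lists had few or no members past the thresholds. Over all genes at 0.2, DESeq2 called 171 of 14445 and edgeR without the filter 39 of 26668. With all 15 labelled libraries edgeR called 138 of 13367. On the thyroid hormone list (10 genes, 9 tested) Crym was the only call at 0.05 or 0.2 in edgeR over the 10 libraries, while DESeq2 and edgeR without the filter each had 1 more at 0.2. Dio2, an enzyme that activates the hormone, had a log2 fold change of -0.07 and did not pass (edgeR). Ttr, the carrier of thyroid hormone in blood and cerebrospinal fluid, had 52 reads in Eed-/- astrocyte replicate 2 and 34 in Eed-/- neuron replicate 3 but 0 in 2 Eed-/- libraries. It was called in edgeR with all 15 labelled libraries (log2 fold change 7.14, adjusted p = 0.0226). That fit also called the erythroid markers Hbb-bt and Hba-a2, the microglia marker P2ry12 and Xist. Among the libraries it adds, Eed-/- astrocyte replicates 1 and 4 held erythroid markers at 8829 and 11930 CPM (without TMM scaling). On the retinoic acid list (19 genes, 15 tested) Crabp1 was called at 0.2 in edgeR and no other gene was, while the fit with all 15 labelled libraries called 2 members at 0.2. Rarb, a receptor that responds to retinoic acid, had 10 reads in Eed-/- astrocyte replicate 5, 3 and 4 in Eed-/- neuron replicates 1 and 2, and none elsewhere. On the neuropeptide list (20 genes, 11 tested) Npy was called at 0.2 in edgeR and no other gene was, while DESeq2 called 2 members at 0.2. Pdyn, the precursor of dynorphins, was at 31.9 and 44.1 CPM in Eed-/- astrocytes and 0 to 18.9 CPM in Eed+/+ astrocytes, without a call. On the fetal list (11 genes, 8 tested) Igf2bp1, an RNA-binding protein of fetal tissues, stood at 44.4 and 7.35 CPM and at 37.2, 41.4 and 52.3 CPM, against 0 to 7.38 CPM (3.45, edgeR adjusted p = 1.00). The lists of PRC1 subunits, Wnt inhibitors, BMP and TGF-beta genes, immediate early genes and the 3 imprinted lists had no called member (edgeR, at 0.05 or 0.2). Without the filter, edgeR called Gdf10 of the BMP and TGF-beta list and the Wnt inhibitor Dkk1 (adjusted p = 0.0435), and DESeq2 called Gdf10 and Sfrp5.

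Genes lower in Eed-/- cells of both types did not pass the test, and those with the smallest p are given as values. Fmo1, a flavin-containing monooxygenase, stood at 59.4 and 4.59 CPM in Eed-/- astrocytes, against 163, 251, 211 and 170 CPM, and at 34.3, 38.0 and 16.5 CPM in Eed-/- neurons, against 68.4 CPM. Its Eed-/- and Eed+/+ libraries did not overlap, and the shared log2 fold change was -2.13 (SE 0.60, edgeR adjusted p = 0.962). DESeq2 gave it an adjusted p of 0.0498. Rasa2, which restrains Ras signaling, was at 51.9 and 94.6 CPM against 159 to 252 CPM in astrocytes and at 108, 85.7 and 106 CPM against 150 CPM in neurons (-1.17, SE 0.34, edgeR adjusted p = 0.962). Sfrp5, a secreted Wnt inhibitor, had 0 reads in both Eed-/- astrocyte libraries and 20.3 to 47.8 CPM in Eed+/+ astrocytes, and 5.11, 2.92 and 6.25 CPM against 15.1 CPM in neurons. Its log2 fold change was -5.04, with an adjusted p of 0.990 in edgeR and 0.00121 in DESeq2. The transporter gene Abca8a and the noncoding Gm47076 had 1 read each in all Eed-/- libraries, against 95 and 93 in Eed+/+ libraries. Rftn2 (-0.71) and Entpd5 (-1.56) were also lower in every Eed-/- library.

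**Figure D4:**
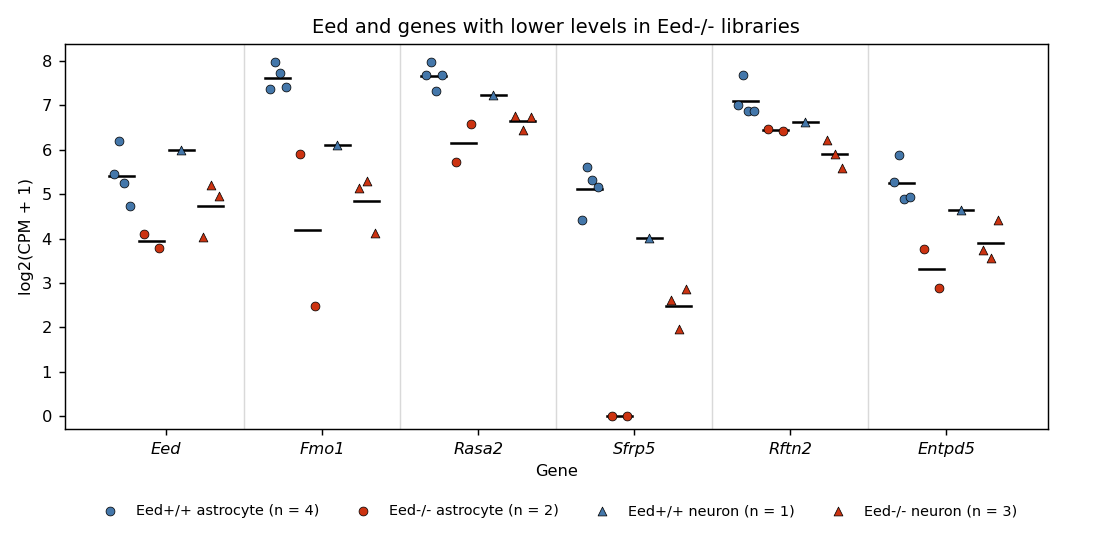
Eed and 5 genes with lower levels in every Eed-/- library, as log2(CPM + 1) per library (circles, astrocytes; triangles, neurons; blue, Eed+/+; red, Eed-/-; bars, group means). Fmo1, Rasa2, Sfrp5, Rftn2 and Entpd5 are separated over all 10 libraries, whereas the Eed levels are separated within each cell type only.

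Sharing was then examined by fitting each cell type apart within 1 model of the 4 groups. No gene passed in astrocytes and in neurons at once with the same sign (edgeR, 0 or 0% at an adjusted p under 0.05, 17 at an unadjusted p under 0.05), and DESeq2 likewise called 0. The interaction of genotype with cell type called 0 genes (0%) in edgeR (342 at an unadjusted p under 0.05) and 5 in DESeq2. The smallest interaction p belonged to Nkd1, an inhibitor of Wnt signaling, at -3.86 in astrocytes and 1.46 in neurons on the log2 scale (unadjusted p = 0.000432, edgeR adjusted p = 1.00). Nde1 and Gpatch4 followed (unadjusted p = 0.00104 and 0.00149). The neuron side of each contrast rests on 1 Eed+/+ library, whose spread was taken to be that of the other groups.

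Over all genes the effects in the cell types showed no common trend. Across 14243 genes, which are not independent replicates, the astrocyte and neuron log2 fold changes had a Pearson r of -0.002 and a Spearman rho of -0.05, with no library in common. Genes higher in Eed-/- astrocytes at an unadjusted p under 0.01 numbered 32, of which 24 (75%) were also higher in Eed-/- neurons, beside 55.5% of all genes. Genes higher in Eed-/- neurons numbered 86, of which 61 (70.9%) were higher in Eed-/- astrocytes, beside 46.9% of all genes. Of the 32 and 86 genes, 12 and 21 had at most 3 reads in all Eed+/+ libraries together. Such genes passed the filter through the Eed-/- libraries and can hardly lie lower in the other cell type, so the shares above those of all genes follow in part from the filter and are no test of sharing. For lower genes the shares lay under those of all genes. Of 61 genes lower in astrocytes 26.2% were lower in neurons, beside 44.6%, and of 13 lower in neurons 38.5% were lower in astrocytes, beside 53.1%. Counts of genes without overlap in each cell type did not show more sharing of higher genes. There were 146 genes (1.01%) higher in both, 197 (1.36%) lower in both, 216 (1.5%) higher in astrocytes and lower in neurons, and 199 (1.38%) the reverse. A separation in neurons against 1 library is easily met, and these 4 shares were of like size.

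**Figure D5:**
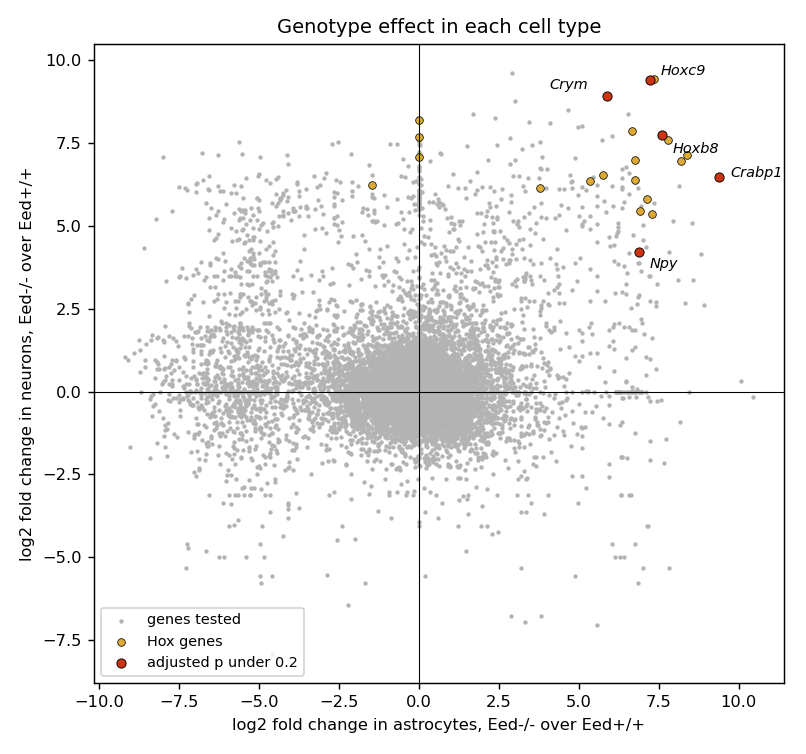
Log2 fold change (Eed-/- over Eed+/+) of each gene in astrocytes (x axis) and in neurons (y axis), from the fit with 4 groups. Gray points are all tested genes and scatter without a trend (Pearson r = -0.002), while the tested Hox genes and the called genes are drawn in color. Their place high on both axes follows in part from the filter on low counts and from the choice of called genes, and is no test.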

How the data were processed

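Per the labels and the study's methods, the authors made Smart-Seq v2 libraries from few sorted cells and used STAR for alignment to mm10 (GRCm38). The deposited values are raw gene counts from uniquely aligned reads, neither normalized nor pooled, and the unstranded column was used. With unstranded counting, antisense genes cannot be told apart, and ambiguous reads (3.73% to 4.62%) were set aside. GENCODE release 21 named 53274 of 53379 identifiers.

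Counts were tested with edgeR 4.0.16 (R 4.3.3; TMM, filterByExpr over 4 groups, robust quasi-likelihood fit of genotype plus cell type, 7 residual degrees of freedom), two-sided, with Benjamini-Hochberg adjustment. A fit of the 4 groups gave each cell type's effect and the interaction. DESeq2 1.42.0 and limma 3.58.1 were among the alternatives. Counting intervals (exact, 95%) and floors (3 counts) cover counting error only, since amplified reads without molecular identifiers are not independent molecules.

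Named genes were the calls and up to 4 more per direction by smallest p, the PRC2 subunits, each list's calls or member with the smallest p, and the 3 smallest interaction p (37 genes). Other genes described were chosen after their values were seen. The members and lists were chosen with earlier results of these data known. One library (1 of 16) had labels naming both cell types and was not used.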

Additional observations from a re-analysis of the deposited data

Results flagged for a closer look

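Within the 4 Eed+/+ astrocyte libraries, the highest or lowest value stood apart from the other 3 by Dixon's test (gap to the nearest library over the whole range, at its 95% critical value) in 8 of 52 values tested. Chance flags about 1 in 20 where values are continuous, but in 7 of the 8 the other 3 libraries were at 0, where any read is flagged, and that rate does not hold for them. Eed+/+ astrocyte replicate 1 held 4 of them, Hoxc9 and Hoxb8 at 0.484 CPM each, Npy at 3.87 CPM and Magel2 at 4.84 CPM, with the other 3 libraries at 0. In Eed+/+ astrocyte replicate 2, Tal1 and Cdkn2b stood at 0.357 CPM each, which is 1 read. Cdkn1c reached 17.4 CPM in replicate 4 and was at 0 in the others. The summed p53 response list was lowest in replicate 5, at 384.7 CPM, with the next at 749.1 CPM.

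Reads for the genes described also occurred in libraries outside the alignment limits. Npy had 206 reads in Eed-/- astrocyte replicate 3 and Crym 25 reads in Eed-/- astrocyte replicate 4, against 0 reads of either gene in the Eed+/+ libraries outside the limits. Most values there were 0, however. Crym had 0 reads in Eed-/- astrocyte replicates 1 and 3, which hold 383061 and 403472 gene reads and allow up to 7.83 and 7.44 CPM (3 reads), far under the 335.5 and 444 CPM of the Eed-/- astrocyte libraries used. Npy had 0 reads in Eed-/- astrocyte replicates 1 and 4, and Crabp1, Hoxc9 and Hoxb8 had 0 in all 3 of these Eed-/- libraries. The 39 Hox genes had 66 reads in Eed-/- astrocyte replicate 3, all from 2 genes, 5 reads in replicate 4 and none in replicate 1. The Eed+/+ libraries outside the limits held 4 and 5 Hox reads (11.6 and 10.5 CPM), so that the 5 reads (23.6 CPM) of replicate 4 lie near that level while the 66 reads (163.6 CPM) of replicate 3 lie above it. The differences between these libraries were not tested.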

How the results depend on the processing

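The number of genes called over both cell types was 1 and became 5 with RLE size factors, 18 without the filter on low counts, 50 with DESeq2, 7 with limma-voom weights, 5 with same-numbered libraries of a genotype as a random block, 4 with the library number run as a further term, 41 with all 15 labelled libraries and 3 without the cell type term. Leaving out 1 library gave 1 to 3, with 3 only without Eed-/- astrocyte replicate 2. Of those, the genes with the same sign in both cell types numbered 5, 18, 39, 7, 5, 4, 35 and 3 in the same order, again 1 to 3 with a library left out. Genes called in both cell types at once numbered 0 in each fit made except without the filter (1). Without Eed+/+ neuron replicate 1 no neuron contrast exists, so the counts by sign, in both cell types and of the interaction cover the other 9 libraries left out. The interaction called 1 gene without the filter, 5 with DESeq2, 7 with all 15 libraries and 107 in the first run alone, and 0 to 1 with a library left out (1 without Eed-/- astrocyte replicate 5). Called members of the pathway lists went from 1 to 5 with RLE, 11 without the filter, 15 with DESeq2, 6 with limma-voom, 5 with the random block, 3 with the run, 13 with all 15 libraries, 3 without the cell type term and 1 to 3 with a library left out.

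The replicate numbers were not taken to pair the libraries, since the deviations of same-numbered libraries correlated between -0.06 and 0.15 and not all above 0.1. Except for Eed-/- replicate 2, however, these pairs join an Eed+/+ and an Eed-/- library, which come from different animals. The limit of 0.1 therefore cannot show whether libraries are paired by animal, and the main fit treats the 10 libraries as independent. Within a genotype only Eed-/- replicate 2 could be checked (0.15), the random block had an estimated correlation of 0.468, and whether these libraries share animals is not known. With the replicate number as a block, 0 genes were called at 0.05 or 0.2, 0 the same way and 0 list members. Crym had a log2 fold change of 6.55 there, with an edgeR adjusted p of 0.205. Without the cell type term Crym had 5.04 (adjusted p = 0.469), and in the remaining alternatives it stayed called. Among alternatives that kept all 10 libraries or changed their number by other means (11), Hoxc9, Crabp1 and Hoxb8 passed 0.05 in 6 and Npy in 7. At 0.2, Hoxc9, Hoxb8 and Npy passed in 9 of them and Crabp1 in 8. The causes were not tested.

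Genes whose sign turned were called in no fit, except Gpatch4 with DESeq2 (adjusted p = 0.0303), where its sign was kept. Ezh2 had 0.078 with RLE and with DESeq2, 0.016 with a mean of over 10 counts required, 0.11 with the replicate block, 0.30 without the cell type term and -0.61 to 0.45 with a library left out. Without the cell type term Suz12 had 0.29, Rbbp4 0.13, Aebp2 0.18 and Gpatch4 0.061. With limma-voom Rbbp4 had 0.24, Mtf2 -0.21, Phf19 -0.38, Nkd1 0.54 and Gpatch4 0.87. With the block Jarid2 had 0.039 and Aebp2 0.15, and with the random block Nkd1 had 0.19. With all 15 libraries Rbbp7 had 0.76, Mtf2 -0.85, Phf1 -0.998 and Cdkn1c 1.91. In the first run Rbbp4 had 0.13 and Rian -1.12. With a library left out, Suz12 ranged from -0.65 to 0.12, Rbbp4 from -0.50 to 0.15, Jarid2 from -0.61 to 0.23, Aebp2 from -0.94 to 0.23, Phf19 from -1.13 to 1.73 and Rian from -1.34 to 2.01. Another 37 values of named genes that did not pass 0.05 passed it under an alternative, all with their direction kept. Low counts in 1 Eed+/+ neuron library and 2 Eed-/- astrocyte libraries limit what can be told of genes that fell, and 0 reads there allow up to 3.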

Other observations

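Some genes lay higher on average in Eed-/- cells of both types without belonging to any list, none of them past the test (edgeR, with the filter on low counts), and all were chosen after their values were seen. Bgn and Col2a1, which encode matrix proteins of cartilage and connective tissue, were among them. Bgn stood at 370.5 and 87.3 CPM in Eed-/- astrocytes against 54.0 to 76.5 CPM, and at 86.2, 59.4 and 56.3 CPM in Eed-/- neurons against 22.4 CPM (log2 fold change 1.72, SE 0.40, adjusted p = 0.511). Col2a1 stood at 159 and 75.3 CPM against 3.47 to 43.9 CPM, and at 12.4, 21.9 and 33.0 CPM against 1.04 CPM (3.04, SE 0.74, adjusted p = 0.695). Both were separated within each cell type and overlapped between the types.

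Slc14a1, a urea transporter of astrocytes, reached 795 CPM in Eed-/- astrocyte replicate 2 and 172 CPM in replicate 5, which lay within the Eed+/+ range of 28.7 to 186.5 CPM (2.41, SE 0.57, edgeR adjusted p = 0.695), so that in astrocytes the difference rests on replicate 2 alone. In neurons Slc14a1 stood at 150.4, 65.8 and 63.7 CPM against 20.4 CPM. Hpca and Hpcal1, neuronal calcium sensors of the same family, were separated over all 10 libraries. Hpca ranged from 21.6 to 55.1 CPM in Eed-/- libraries and from 0 to 11.7 CPM in Eed+/+ libraries, and Hpcal1 from 18.8 to 59.7 CPM and from 0 to 13.8 CPM. Foxp1, a transcription factor of cortical neurons, was separated as well, at 33.1 to 76.2 CPM against 11.3 to 30.3 CPM (1.38, SE 0.48, adjusted p = 1.00).

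Other processing called some of these genes at 0.05. Without the filter on low counts, edgeR gave adjusted p of 6.02e-07 for Slc14a1, 0.0232 for Col2a1 and 0.0489 for Bgn, and with the library number run as a further term 0.0332 for Slc14a1. DESeq2 gave 0.0142 for Slc14a1 and Col2a1, 0.0172 for Bgn and 0.0498 for Hpca.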
